A study of Mus musculus with 27 samples.

Results

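Naive pluripotency of mouse embryonic stem cells rests on a circuit of transcription factors, and 9 of them are described here: Klf2, Klf4, Klf5, Esrrb, Tfcp2l1, Nr5a2, Zfp42 (Rex1), Tbx3 and Nr0b1 (Dax1). They were picked by symbol as known factors of the naive state, with earlier results of these data known. All 9 were found, each as 1 entry of a table of 23604 genes measured by bulk RNA-seq in 19 libraries. Histone marks, DNA methylation and single-cell RNA-seq of formative pluripotent stem cells (fPSCs) covered the same genes.

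In the naive state, the cytokine LIF acts through Stat3 on Klf4 and Tfcp2l1, and inhibition of Gsk3 relieves the repression of Esrrb by Tcf7l1. The members bind one another's regulatory regions, so that each helps to keep the others expressed. When inhibitors and LIF are withdrawn, the circuit is dismantled while Pou5f1 stays expressed, and cells pass through a formative phase before they become primed. EpiSCs, the primed cells, resemble the epiblast of the gastrulating embryo.

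The study asked whether fPSCs are a stable state between naive mESCs and primed EpiSCs. mESCs (2 libraries) grew without feeders on gelatin in N2B27 with a Mek inhibitor (PD035901 in the labels), the Gsk3 inhibitor Chir99021 and hLIF. EpiLCs (2 libraries) were made from mESCs with Activin A, bFgf2 and KSR (a serum replacement), and Epiblastoids on days 2, 3 and 4 (1 library each) were made under the same factors in a 3D Matrigel culture. fPSCs grew embedded in Matrigel, also as a 3D culture, with Activin A, bFgf2 and XAV939, a Wnt inhibitor. Of them there were 1 library at passage 1 (P1) and 7 long-term libraries: P10, P20 and P30 of 1 line, a cryopreserved passage 11 of the same line (CMT P11), and the lines 46C, BVSC and ROSA mT/mG. The last 4 were deposited later and made with another library kit, so that for the lines 46C, BVSC and ROSA mT/mG the effect of line and that of deposit cannot be told apart. Single libraries at P10 came from fPSCs derived from E5.5 and E6.5 epiblasts. EpiSCs (2 libraries) grew with KSR, Activin A, bFGF2 and XAV939 on inactivated mouse embryonic fibroblasts. Every sample was labelled wild type, 46C, BVSC and ROSA mT/mG being names of reporter lines. No label says whether the replicates came from separate cultures, so p-values measure the spread between these libraries, which may be technical.

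Libraries summed to between 307394 and 414727 FPKM, with 10034 to 10933 genes at 1 FPKM or more. FPKM are fragments scaled by transcript length and by mapped fragments, so levels can be compared between genes, but the depth behind a value is unknown. Pou5f1, the core pluripotency factor, was at 762 ± 2.91 FPKM in mESCs and 691 ± 237 FPKM in the long-term fPSCs (SD, n = 2 and 7), and does not tell these groups apart. It was at 392 and 732 FPKM in EpiLCs and at 226 and 234 FPKM in EpiSCs. Fgf5, a marker of the postimplantation epiblast, was at 0.0374 ± 0.0259 FPKM in mESCs and 92.9 ± 13.0 FPKM in fPSCs (SD, n = 2 and 7). The EpiLC libraries held 44.0 and 54.1 FPKM of Fgf5 and the EpiSC libraries 10.3 and 14.7 FPKM. Both EpiSC libraries also held RNA of fibroblast genes. The 21 fibroblast markers summed to 745 and 904 FPKM there, with 16 and 17 of them at 1 FPKM or more and 1 and 0 of them at 0. Over the mESCs, EpiLCs and long-term fPSCs their sum lay between 2.57 and 20.9 FPKM. Their part in the EpiSC values given here was not tested.

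Sequences are given for the start sites that show how unlike the members' promoters were in fPSCs. They are the 250 bases before a start site in mm9, taken from the NCBIM37 assembly and the GENCODE annotation of that build, 5′ to 3′ on the gene's strand, with CpG dinucleotides in capitals. Klf4 (chr4:55545348-55545597, minus strand) and Tbx3 (chr5:120120428-120120677, plus strand) are shown as the least methylated, and Zfp42 (chr8:44392364-44392613, minus strand) as the most methylated. These labels rest on the mean methylation within 1000 bp of the outermost start site, not on the printed bases. In the printed Klf4 bases the 2 windows with a value lay at 0% and 20%, and the 1 window in those of Zfp42 at 0%. For Nr5a2 (chr1:138857005-138857254 and chr1:138850208-138850457, minus strand) and Esrrb (chr12:87701817-87702066 and chr12:87762344-87762593, plus strand) the outermost start site and an inner one are shown, because the 2 sites differed. Each inner site lies in an intron of the longer transcript, and the other sequences lie just upstream of their genes.
Klf4: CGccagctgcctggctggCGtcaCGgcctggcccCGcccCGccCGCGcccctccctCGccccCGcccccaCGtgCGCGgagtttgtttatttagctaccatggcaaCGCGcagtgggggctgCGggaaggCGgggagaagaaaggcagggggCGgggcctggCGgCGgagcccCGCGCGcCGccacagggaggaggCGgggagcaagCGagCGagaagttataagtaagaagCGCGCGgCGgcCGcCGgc
Tbx3: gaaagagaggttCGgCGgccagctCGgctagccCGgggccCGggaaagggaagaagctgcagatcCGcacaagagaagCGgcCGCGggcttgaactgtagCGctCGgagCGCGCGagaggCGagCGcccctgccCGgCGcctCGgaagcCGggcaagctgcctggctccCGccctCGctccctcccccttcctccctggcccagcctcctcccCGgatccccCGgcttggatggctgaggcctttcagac
Zfp42: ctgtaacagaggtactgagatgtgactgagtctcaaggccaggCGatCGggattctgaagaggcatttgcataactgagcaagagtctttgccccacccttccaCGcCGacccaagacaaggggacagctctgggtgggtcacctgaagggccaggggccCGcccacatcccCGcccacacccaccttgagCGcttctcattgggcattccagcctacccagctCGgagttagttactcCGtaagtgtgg
Nr5a2 outermost start: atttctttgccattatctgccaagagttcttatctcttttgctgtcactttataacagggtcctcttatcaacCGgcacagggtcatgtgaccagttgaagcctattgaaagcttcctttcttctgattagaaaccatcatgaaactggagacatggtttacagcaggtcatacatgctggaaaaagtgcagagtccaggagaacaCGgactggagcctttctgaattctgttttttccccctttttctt
Nr5a2 inner start: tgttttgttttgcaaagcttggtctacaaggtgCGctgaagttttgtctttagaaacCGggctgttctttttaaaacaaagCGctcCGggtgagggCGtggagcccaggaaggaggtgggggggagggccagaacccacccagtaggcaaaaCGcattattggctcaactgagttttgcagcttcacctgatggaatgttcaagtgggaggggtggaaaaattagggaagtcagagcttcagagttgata
Esrrb outermost start: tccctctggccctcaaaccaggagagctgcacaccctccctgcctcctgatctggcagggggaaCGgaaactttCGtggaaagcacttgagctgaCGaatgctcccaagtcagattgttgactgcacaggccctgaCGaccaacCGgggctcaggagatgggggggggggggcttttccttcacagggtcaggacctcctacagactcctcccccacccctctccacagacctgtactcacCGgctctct
Esrrb inner start: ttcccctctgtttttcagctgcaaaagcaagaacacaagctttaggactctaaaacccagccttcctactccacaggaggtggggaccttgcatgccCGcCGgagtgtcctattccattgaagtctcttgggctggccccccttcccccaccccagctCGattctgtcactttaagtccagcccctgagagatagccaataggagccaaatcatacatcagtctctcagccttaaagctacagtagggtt
The Klf4 window holds 32 CpGs and the Tbx3 window 24, against a median of 8 over 22089 promoters. The Zfp42 window holds 9, those of Nr5a2 2 and 6, and those of Esrrb 6 and 3.

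All 9 members were lower in EpiLCs, long-term fPSCs and EpiSCs than in mESCs, Klf5 least so in EpiSCs, where 15.4% of its mESC mean was left. Together they summed to 1089 ± 192 FPKM in mESCs, 25 ± 1.08 FPKM in EpiLCs and 20.9 ± 4.73 FPKM in EpiSCs (SD, n = 2 each). In the long-term fPSCs the sum was 4.30 ± 2.05 FPKM (SD, n = 7), or 0.395% of that in mESCs. It ran from 1.41 FPKM in ROSA mT/mG to 7.02 FPKM in P10. In bulk RNA, fewer cells of a type and less RNA per cell cannot be told apart. In 1 limma fit over mESCs, EpiLCs, fPSCs and EpiSCs, genes were called at a fold of at least 1.5 and an adjusted p (Benjamini-Hochberg) under 0.05. Against mESCs, 9 of 9 members were called lower in EpiLCs, where 17.4% of 12513 genes were. The same count of 9 was reached in fPSCs, where 23.0% of all genes were called lower, and in EpiSCs, where 24.7% were. The members' median log2 fold change was -5.17 in EpiLCs, -5.66 in fPSCs and -4.89 in EpiSCs, against medians of all genes of -0.06, -0.04 and -0.09. These 3 comparisons share the mESC libraries. Tfcp2l1, Nr5a2 and Tbx3 passed the filter on low values only through mESCs, since fewer than 2 of the libraries in the fit reached 1 FPKM without them. The direction of their difference from mESCs was thus fixed by the filter, and the test of these 3 genes adds no support. The counts and medians of the members above include them. Without either mESC library they dropped out, and the remaining 6 members were still called lower in each comparison.

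**Figure D1:**
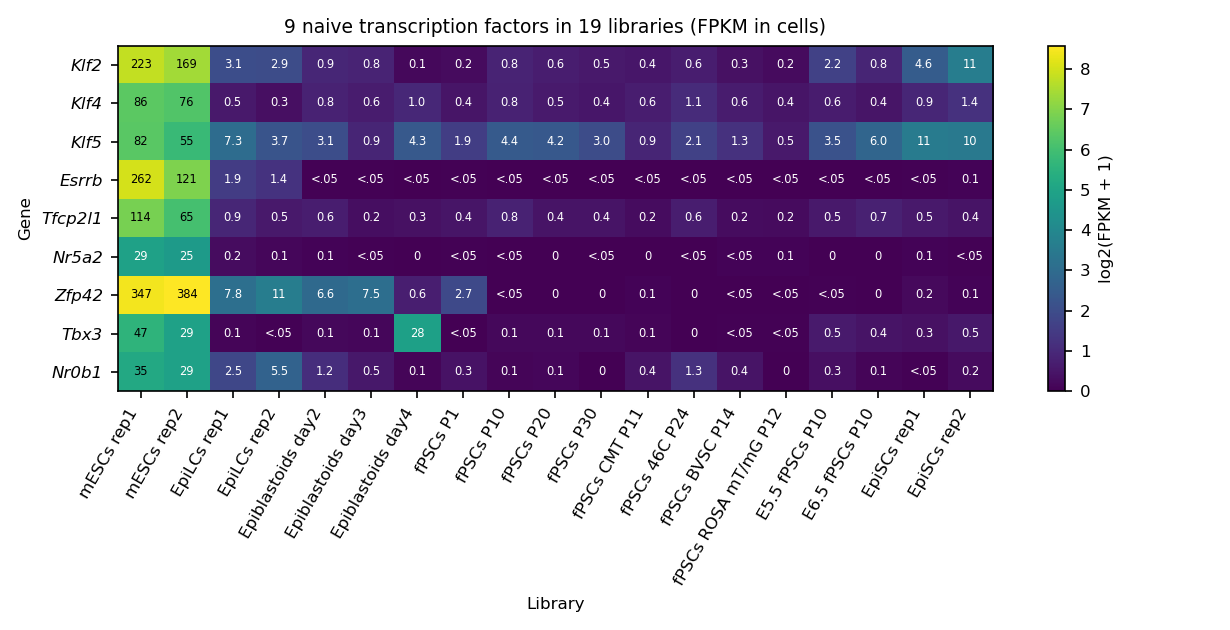
FPKM of the 9 members (rows) in the 19 libraries (columns), coloured on the log2(FPKM + 1) scale, with the FPKM printed in each cell (the sign for less than marks values above 0 and under 0.05, and 0 a gene listed at 0). The 2 mESC columns are bright for every gene, and outside them Tbx3 in Epiblastoids on day 4 (28.3 FPKM) is the highest value.

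The order of loss was read in EpiLCs, the earliest group with replicates. Every member had already fallen below 50% of its mESC mean there, so which gene fell first cannot be read from these libraries. Tbx3, Klf4, Nr5a2, Tfcp2l1 and Esrrb kept 0.176%, 0.487%, 0.590%, 0.779% and 0.868% of their mESC means. All but Esrrb were under 1 FPKM in both EpiLC libraries, and the ranges of Klf4, Nr5a2, Tfcp2l1 and Esrrb overlapped between neighbours. With 1 added to each FPKM, Tbx3 moved from place 1 to place 5, so these 5 genes are not ranked among themselves. Klf2 kept 1.53% and Zfp42 2.62%. Klf5 at 7.98% and Nr0b1 at 12.4% kept most, and their ranges overlapped as well. Nr0b1 was thus the 1 member of 9 above 10% in EpiLCs. In the long-term fPSCs all 9 means lay below 10%, with Klf5 highest at 3.39%. In EpiSCs Klf5 again kept most, at 15.4%, followed by Klf2 at 4.10%.

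**Figure D2:**
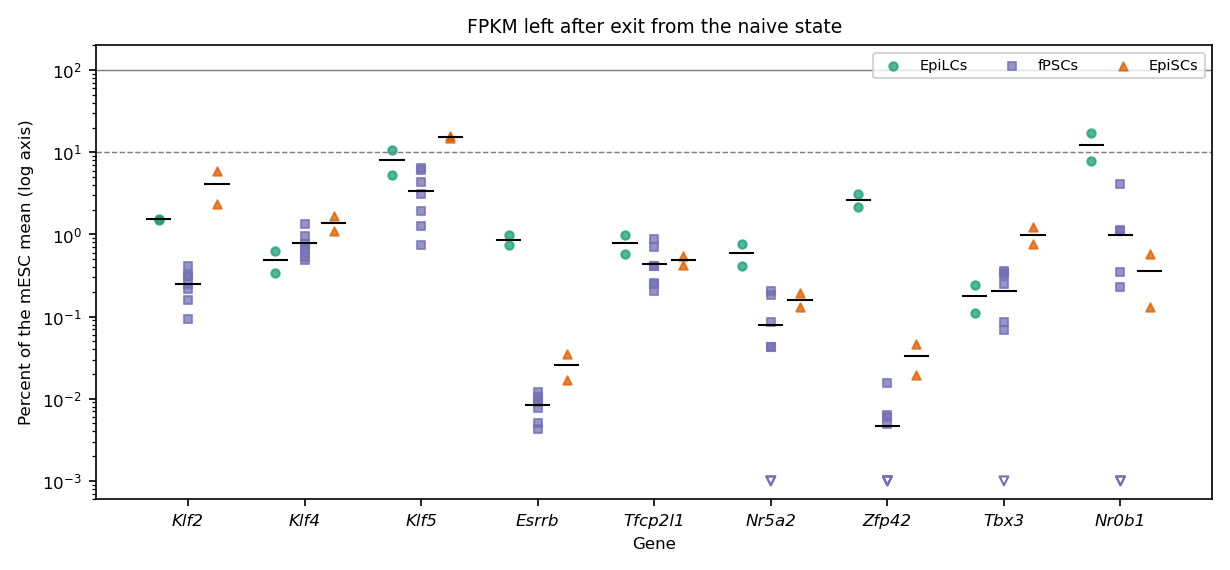
Percent of each member's mean mESC FPKM that was left in each library (points, log axis) of EpiLCs, long-term fPSCs and EpiSCs, with group means as black bars, 100% and 10% as grey lines, and libraries at 0 as open triangles at the foot of the axis. Klf5 and Nr0b1 sit highest in EpiLCs, and the means of Esrrb and Zfp42 in fPSCs are 0.0083% and 0.0047%.

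Klf2, a Krüppel-like zinc finger factor whose protein is stabilised when Mek is inhibited, was at 223 and 169 FPKM in the 2 mESC libraries. It was at 3.06 and 2.94 FPKM in EpiLCs. In the 7 fPSC libraries its lowest level was 0.185, its median 0.487 and its highest 0.803 FPKM. The 4 groups did not overlap, EpiSCs included, where Klf2 stood at 4.62 and 11.5 FPKM. Klf2 fell by 5.61 on the log2(FPKM + 1) scale from mESCs to EpiLCs (SE 0.325, limma adjusted p = 4.88e-08). It was lower again in fPSCs than in EpiLCs, by a log2 fold change of -1.43 (SE 0.260, limma adjusted p = 0.00226). EpiSCs were above fPSCs, with a log2 fold change of 2.50 (SE 0.260, limma adjusted p = 9.56e-06). Klf2, Klf4, Esrrb, Tbx3 and Nr0b1 were higher in the second EpiSC library than in the first, and Klf5, Tfcp2l1, Nr5a2 and Zfp42 were lower. The fibroblast markers summed to 745 FPKM in the first and 904 FPKM in the second library, and their part was not tested. Against EpiLCs the EpiSC rise of 1.07 (SE 0.325, limma adjusted p = 0.0218) lost its call without that library, at 0.49 (limma adjusted p = 0.264). It was also lost without EpiLCs replicate 1 or replicate 2, at limma adjusted p = 0.0706 and 0.0945, and with a pseudocount of 0.1 (limma adjusted p = 0.0799).

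Klf4, which with Klf2 and Klf5 binds many of the same CACCC-type sites, was at 85.6 and 76.0 FPKM in mESCs. The EpiLC libraries stood at 0.514 and 0.273 FPKM, and fPSCs ran from 0.40 through a median of 0.57 to 1.08 FPKM in 46C. EpiLCs and fPSCs overlapped, and mESCs stood far above both. Klf4 fell by 5.88 on the log2 scale to EpiLCs (SE 0.214, limma adjusted p = 6.23e-10) and by 5.66 to fPSCs (SE 0.171, limma adjusted p = 3.39e-11). The EpiSC libraries, at 0.898 and 1.35 FPKM, lay above both EpiLC libraries and overlapped fPSCs. Their log2 fold change of 0.61 over EpiLCs (SE 0.214, limma adjusted p = 0.0414) was past the threshold, but not without any 1 of the 4 libraries, where adjusted p ran from 0.0571 to 0.259.

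Klf5, a Krüppel-like factor of the circuit that is also needed in the early embryo, was the member with the highest mean level in fPSCs and EpiSCs. In the second EpiSC library Klf2 lay above it, at 11.5 FPKM against 10.2. Its mESC libraries were at 82.4 and 55.1 FPKM and its EpiLC libraries at 7.28 and 3.69 FPKM. In fPSCs it spread more widely, from 0.517 FPKM in ROSA mT/mG through a median of 2.13 to 4.38 FPKM in P10. The EpiSC libraries, at 11 and 10.2 FPKM, lay above every EpiLC and fPSC library, while EpiLCs and fPSCs overlapped. Klf5 fell by 3.46 on the log2 scale to EpiLCs (SE 0.559, limma adjusted p = 0.000441). EpiSCs were above fPSCs by 1.94 (SE 0.448, limma adjusted p = 0.00512). That call was lost without the first or the second EpiSC library (limma adjusted p = 0.0524 and 0.0588), and the fibroblast markers were high in both.

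The fPSC libraries of the 2 deposits differed in Klf5. P10, P20 and P30 of the first deposit lay at 4.38, 4.15 and 2.95 FPKM. CMT P11, 46C, BVSC and ROSA mT/mG of the second lay at 0.866, 2.13, 1.31 and 0.517 FPKM. The 2 sets did not overlap, and CMT P11, of the same line as the first set, sat with the second. In a limma fit of these 7 libraries the log2 fold change of the second deposit was -1.17 (SE 0.249, adjusted p = 0.00599), where 8.93% of 10930 genes were called lower and 20.8% higher, and the median of all genes was 0.19. The other 8 members did not reach 1 FPKM in 2 of these libraries and were not tested. When the second deposit was represented by CMT P11 alone, so that all libraries were of 1 line, the log2 fold change was -1.36 (limma adjusted p = 0.0195), the lone library being assumed to vary like the others. Library kit, deposit and cryopreservation cannot be told apart in it.

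Esrrb, an orphan nuclear receptor that binds with Pou5f1 and Sox2 in naive cells, was at 262 and 121 FPKM in mESCs, the widest spread among the members. EpiLCs still held 1.91 and 1.41 FPKM. The fPSC libraries ran from 0.0083 through 0.0176 to 0.0230 FPKM and the EpiSC libraries stood at 0.0322 and 0.0667 FPKM. All 4 groups stood apart, although the levels in fPSCs and EpiSCs are too low for their difference to be read at an unknown depth. Esrrb fell by 6.08 on the log2 scale to EpiLCs (SE 0.263, limma adjusted p = 3.40e-09) and was lower again in fPSCs, by a log2 fold change of -1.38 (SE 0.211, limma adjusted p = 0.000608). From EpiLCs to EpiSCs it fell by 1.34 (SE 0.263, limma adjusted p = 0.00173). On days 2, 3 and 4 of the Epiblastoids it was at 0.0475, 0.0337 and 0.0067 FPKM, below both EpiLC libraries.

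Nr5a2, a nuclear receptor that can act on the Pou5f1 enhancer, was at 28.8 and 24.6 FPKM in mESCs. EpiLCs held 0.206 and 0.109 FPKM and EpiSCs 0.0515 and 0.0346 FPKM. In fPSCs it was listed at 0 in P20 and CMT P11, and the other libraries held 0.0113 to 0.0540 FPKM. Every library outside mESCs was near the bottom of the scale, and fPSCs overlapped EpiSCs. Nr5a2 fell by 4.58 to EpiLCs (SE 0.115), a direction fixed by the filter, which it passed only through mESCs. With a pseudocount of 1 its fPSC to EpiLC difference of -0.18 (SE 0.093) had a limma adjusted p of 0.235, and with a pseudocount of 0.1 the difference was -1.08 (limma adjusted p = 0.00965).

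Nr0b1, a nuclear receptor without a DNA-binding zinc finger that acts as a corepressor, was at 35.1 and 29.3 FPKM in mESCs. It was kept in EpiLCs at 2.53 and 5.48 FPKM. Among fPSCs it was listed at 0 in P30 and ROSA mT/mG, at 0.0744, 0.112, 0.358 and 0.368 FPKM in P10, P20, BVSC and CMT P11, and at 1.32 FPKM in 46C. Even 46C lay below both EpiLC libraries, and EpiSCs at 0.0419 and 0.188 FPKM fell within the range of fPSCs. Nr0b1 fell by 2.79 to EpiLCs (SE 0.375, limma adjusted p = 9.82e-05), the smallest fall of the 9. A further fall of 1.92 separated fPSCs from EpiLCs (SE 0.300, limma adjusted p = 0.000739).

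Tfcp2l1, a grainyhead-family factor downstream of both LIF and Gsk3 inhibition, was at 114 and 65.4 FPKM in mESCs. EpiLCs held 0.877 and 0.518 FPKM, fPSCs ran from 0.185 through 0.365 to 0.785 FPKM, and EpiSCs held 0.495 and 0.378 FPKM. Outside mESCs all libraries lay under 1 FPKM, and fPSCs overlapped EpiLCs and EpiSCs. Tfcp2l1 fell by 5.69 to EpiLCs (SE 0.266), a direction fixed by the filter, which it passed only through mESCs. The difference of fPSCs from EpiLCs was -0.29 (SE 0.213, limma adjusted p = 0.430).

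Tbx3, a T-box factor that works in naive cells and again in endoderm and mesoderm formation, was at 47.4 and 29.3 FPKM in mESCs. EpiLCs held 0.0920 and 0.0430 FPKM and EpiSCs 0.292 and 0.468 FPKM. Among fPSCs it was listed at 0 in 46C and reached 0.138 FPKM in P10. EpiLCs and fPSCs overlapped, and EpiSCs lay above both. Tbx3 fell by 5.17 to EpiLCs (SE 0.187, limma adjusted p = 6.21e-10) and fell by 5.15 to fPSCs (SE 0.150, limma adjusted p = 2.34e-11). EpiSCs against fPSCs gave 0.36 (SE 0.150, limma adjusted p = 0.0802), and 1.48 with a pseudocount of 0.1 (limma adjusted p = 0.00829).

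Zfp42, a zinc finger protein related to Yy1 and a long-used marker of naive cells, was the member with the highest level in mESCs, 347 and 384 FPKM. EpiLCs held 7.80 and 11.3 FPKM. Among the long-term fPSCs it was listed at 0 in P20, P30 and 46C, and the other 4 libraries held 0.0179 to 0.0571 FPKM. The EpiSC libraries, at 0.172 and 0.0711 FPKM, lay just above all fPSC libraries. Zfp42 fell by 5.14 to EpiLCs (SE 0.184, limma adjusted p = 5.83e-10) and from there by 3.36 to fPSCs (SE 0.147, limma adjusted p = 6.59e-09). From EpiLCs to EpiSCs it fell by 3.22 (SE 0.184, limma adjusted p = 4.22e-08).

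Between the states past the naive one, 4 of 9 members were lower in fPSCs than in EpiLCs (Zfp42, Nr0b1, Klf2 and Esrrb), where 8.15% of all genes were called lower and 5.66% higher. The other 5 did not pass the threshold, and their log2 fold changes ran from -1.05 for Klf5 (SE 0.448, limma adjusted p = 0.147) to 0.22 for Klf4 (SE 0.171, limma adjusted p = 0.463). Among them Tfcp2l1, Nr5a2 and Tbx3 were under 1 FPKM in every EpiLC, long-term fPSC and EpiSC library. For these genes the lack of a call cannot be read as no change. In EpiSCs against EpiLCs, 3 were called lower (Zfp42, Nr0b1 and Esrrb) and 2 higher (Klf2 and Klf4), where 15.5% and 20.4% of all genes were. In EpiSCs against fPSCs, Klf2 and Klf5 were called higher, where 19% of all genes were called higher and 13.3% lower. Both counts of higher members are near the shares over all genes. As given above, the calls of Klf2 and Klf4 over EpiLCs and of Klf5 over fPSCs were lost when single libraries were left out. These comparisons share libraries in pairs.

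**Figure D3:**
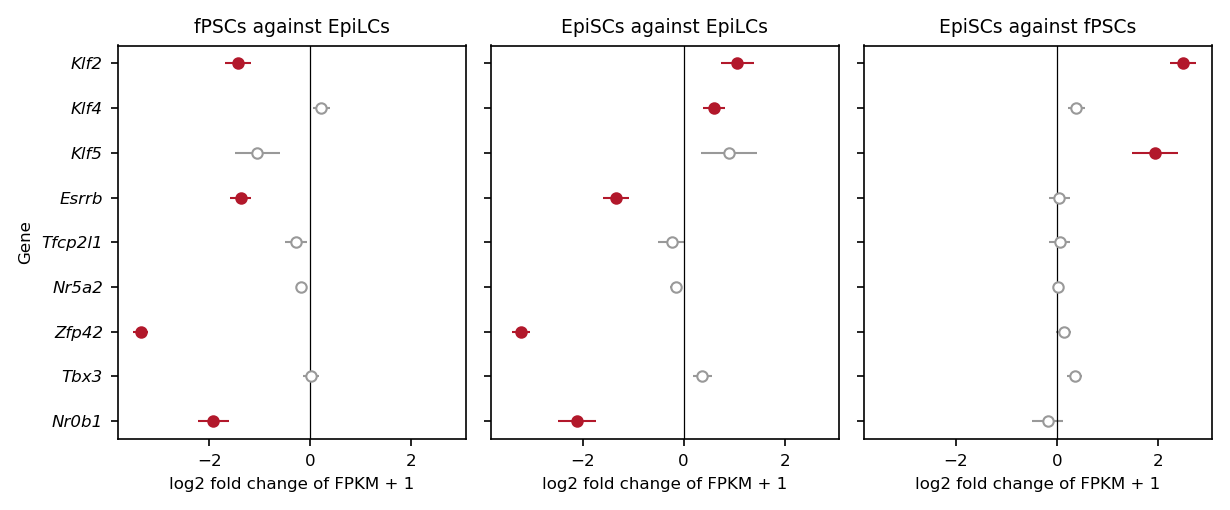
Log2 fold changes of FPKM + 1 with their standard errors (bars) for the 9 members in 3 comparisons from the limma fit; red filled points are past the threshold (adjusted p under 0.05 and a fold of at least 1.5) and grey open points are not. Zfp42 has the largest falls from EpiLCs (-3.36 in fPSCs and -3.22 in EpiSCs), and Klf2 and Klf5 stand to the right in EpiSCs against fPSCs (2.50 and 1.94).

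The levels were low from the first single library on the path to fPSCs. On day 2 of the Epiblastoids the 9 members summed to 13.4 FPKM, on day 3 to 10.6 FPKM and in fPSCs P1 to 6.06 FPKM. Zfp42 made up much of what remained, at 6.59, 7.50 and 2.69 FPKM, and at most 0.0571 FPKM in the long-term libraries. Nr0b1 went from 1.20 FPKM on day 2 to 0.466 FPKM on day 3 and 0.0759 FPKM on day 4. In fPSCs P1, Zfp42 and Esrrb (0.0260 FPKM) lay above the range of the long-term fPSCs, and the other members lay within it. The share of all genes outside that range was not counted, so this is not read as a trait of the members. These libraries have no replicates, so no test was made.

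On day 4, in the same medium as on days 2 and 3, the Epiblastoids stood apart in Tbx3. It was at 0.137 FPKM on day 2, 0.121 on day 3 and 28.3 on day 4, which is 73.8% of its mESC mean. On the log2(FPKM + 1) scale day 4 exceeded day 3 by 4.71, and 23 of 11357 genes, Tbx3 included, showed a difference as high. Klf5 was also higher on day 4, at 4.28 FPKM against 0.861 (log2 difference 1.5), and Zfp42 was lower, at 0.634 FPKM against 7.50 (log2 difference -2.38). Of all genes, 7.85% were higher and 8.22% lower by at least 1 between these libraries. Between days 2 and 3 Klf5 was the 1 member past that size (-1.12), where 2.47% of genes were lower and 3.11% higher by it. Tbx2, a close relative of Tbx3 named here after its values were seen, was at 1.72 FPKM on day 4 and listed at 0 on day 3. The 13 endoderm markers summed to 490 FPKM on day 4 (7 at 1 FPKM or more, 2 at 0) against 4.19 FPKM on day 3, and the 10 streak and mesoderm markers to 585 FPKM (9 at 1 FPKM or more) against 52.1 FPKM. Among fPSCs, the endoderm markers summed to 429 FPKM in 46C, 235 FPKM in the E5.5 line and 153 FPKM in the E6.5 line. The streak and mesoderm markers summed to 112, 128 and 118 FPKM there, against 585 FPKM on day 4. Tbx3 was listed at 0 in 46C and stood at 0.528 and 0.379 FPKM in the E5.5 and E6.5 lines. The part of either set of markers in the Tbx3 value on day 4 was not tested.

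The fPSCs derived from epiblasts were also low in the naive factors. The members summed to 7.61 FPKM in the E5.5 line and 8.46 FPKM in the E6.5 line, both just above the 7 long-term libraries. In the E5.5 line Klf2 at 2.17 FPKM and Tbx3 at 0.528 FPKM lay above the range of the 7 long-term libraries, and the other members lay within it. In the E6.5 line Klf2 at 0.850, Klf5 at 6.03 and Tbx3 at 0.379 FPKM lay above, Klf4 at 0.387 FPKM lay just below, and the others lay within. How many of all genes fall outside that range was not counted, so these places are not read as a trait of the members. Nr5a2 was listed at 0 in both lines and Zfp42 in the E6.5 line. The endoderm markers summed to 235 and 153 FPKM in these lines, against 12.3 to 429 FPKM in the long-term fPSCs, and their part was not tested.

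Other genes of the naive state moved with the members to different extents. Of 16 other naive and preimplantation genes, 12 were called lower and 3 higher in EpiLCs than in mESCs, where 17.4% and 12.2% of all genes were. Their median on the log2 scale was -3.73. Tcl1 (-6.27) and Jam2 (-6.01) had the largest changes. Dppa5a, a marker abundant in naive cells, was still at 481 ± 245 FPKM in EpiLCs (SD, n = 2) and at 0.486 ± 0.332 FPKM in fPSCs (SD, n = 7). In fPSCs all 16 were called lower than in mESCs (median -4.63), where 23.0% of all genes were. From EpiLCs to fPSCs, 9 were lower and 1 was higher, where 8.15% and 5.66% of all genes were. The 1 higher gene was Nanog, which went from 8.30 ± 0.425 to 68.8 ± 9.66 FPKM (SD, n = 2 and 7, log2 fold change 2.90, SE 0.168, limma adjusted p = 8.78e-08). Nanog is a homeodomain factor of the core network. In EpiSCs it was at 17.7 ± 2.74 FPKM (SD, n = 2).

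The inputs of the circuit were read from 15 genes of the LIF, Wnt and Erk pathways. Socs3, a direct Stat3 target that reports LIF signalling, went from 72.7 ± 9.32 FPKM in mESCs to 0.930 ± 0.353 FPKM in EpiLCs (SD, n = 2 each, log2 fold change -5.26, SE 0.254, limma adjusted p = 8.29e-09). In fPSCs it was at 1.61 ± 0.408 FPKM and in EpiSCs at 14.9 ± 2.76 FPKM (SD, n = 7 and 2). EpiSCs against fPSCs gave 4 of these 15 as called higher, where 19% of all genes were, with Socs3 at 2.61 (SE 0.204, limma adjusted p = 6.36e-07) and the kinase gene Jak1 at 1.77 (SE 0.274, limma adjusted p = 0.000302). The fibroblast markers were higher in the same comparison for 15 of 16 tested. Dusp6, an Erk-induced phosphatase, rose by 4.54 from mESCs to EpiLCs (SE 0.289, limma adjusted p = 1.21e-07). There 4 of the 15 genes were called higher and 6 lower, against 12.2% and 17.4% of all genes.

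Among 13 regulators of exit and the formative state, 7 were called higher and 1 lower in both EpiLCs and fPSCs than in mESCs. Of all genes, 12.2% were called higher and 17.4% lower in EpiLCs, and 17.3% and 23.0% in fPSCs. Pou3f1, a POU factor of the early postimplantation epiblast, rose by 6.32 in EpiLCs (SE 0.449, limma adjusted p = 3.30e-07), and the DNA methyltransferase gene Dnmt3b rose from 13.9 ± 0.766 to 661 ± 45.5 FPKM (SD, n = 2 each). Of 23 genes related to the members by family, 16 were tested. Of these, 1 was higher and 4 were lower in EpiLCs than in mESCs, close to the shares over all genes of 12.2% and 17.4%. Klf8 (-2.68) and Klf15 (-2.55) changed most, and both were at lower levels in mESCs, 10.7 ± 0.798 and 15.6 ± 0.234 FPKM (SD, n = 2), than Klf2, Klf4 or Klf5. Klf16, an abundant family member, was at 22.4 ± 1.75 FPKM in mESCs and 33.8 ± 20.6 FPKM in fPSCs (SD, n = 2 and 7), with a log2 fold change of 0.35 (SE 0.511, limma adjusted p = 0.616). In EpiSCs against fPSCs 3 of 16 relatives were higher, Klf3 (1.53) and Klf6 (1.46) among them, and 2 were lower, which is close to the shares over all genes of 19% and 13.3%.

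The genes most like the members over the 19 libraries were found by Pearson's r of log2(FPKM + 1) among 7824 genes. For Nr5a2 and for Tfcp2l1 it was Dmgdh (r = 0.999 and 0.995), for Klf4 Aqp3 (0.993), for Esrrb Phf11c (0.992) and for Zfp42 Adap1 (0.992). Nr0b1 was closest to Liph (0.988), Klf2 to Susd2 (0.977), Klf5 to Acsf2 (0.946) and Tbx3 to Elf3 (0.931). Over the 17 libraries other than mESCs, a calculation added after the data were seen, r was 0.966 for Zfp42, 0.957 for Nr0b1 and 0.930 for Esrrb with the same genes. It was 0.866 for Klf2, 0.822 for Klf5, 0.785 for Tbx3 and 0.610 for Nr5a2. It was lowest for Klf4 (0.337) and Tfcp2l1 (0.162). Over the mean of the members, Crxos (0.992), Calb2 (0.990) and Rfx2 (0.989) were closest. Over the 17 libraries other than mESCs, r was 0.775, 0.806 and 0.734 for these genes.

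Chromatin was measured in fPSCs at P10, where Klf5 stood at 4.38 FPKM in the RNA library and each other member under 1 FPKM. H3K4me3 marks active or poised promoters, H3K27me3 is laid down by Polycomb, and methylation of CpG-rich promoters goes with stable silencing. Each mark is in 1 track without separate replicates, so values carry a 95% exact Poisson interval for the reads behind them, which covers counting error only and takes reads as independent. Methylation has no coverage in the files, and its depth is unknown. Marks are means within 5000 bp and methylation the mean within 1000 bp of the outermost start site. Of the 9 members, 6 had more H3K4me3 than the median promoter (as had 50% of all 22089), 8 had more H3K27me3, and 3 were methylated above 50%, as were 43.0% of all promoters. These counts moved with the width around the start site. With marks within 1000 or 2500 bp, 5 members had more H3K4me3 than the median, Esrrb dropping below it. With methylation within 2000 bp, 4 members were above 50%, Nr0b1 being added at 55.3%. Of the 16 other naive genes, 11 were methylated above 50%.

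Tbx3 had the most H3K27me3, and with Klf4 the most H3K4me3 among outermost starts. Its start site at 120120678 on chromosome 5 had 3.12 RPKM of H3K4me3 (2.74 to 3.52) and 4.34 RPKM of H3K27me3 (4.02 to 4.68), against medians of 1.13 and 0.376 RPKM over all promoters. Methylation was 1.72%, and a stretch of 5800 bp around the start site stayed at or under the low-methylation limit of 0.2. The printed sequence is covered by 3 windows of 100 bp with a value, all at 0%. Over the body of the gene methylation was 16.5%, the lowest among the members.

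Klf4 (start site at 55545347 on chromosome 4) was similar with less H3K27me3. It had 2.59 RPKM of H3K4me3 (2.25 to 2.96, an interval that overlaps that of Tbx3), or within 2500 bp 4.68 RPKM against 4.54 RPKM at Tbx3. H3K27me3 was at 1.80 RPKM of H3K27me3 (1.60 to 2.02), and methylation at 1.25% with a low stretch of 4200 bp. Klf2 (74842932 on chromosome 8) had 1.71 RPKM (1.44 to 2.02) and 2.19 RPKM (1.96 to 2.43) of the marks and 13.1% methylation. Klf5 (99697910 on chromosome 14) had 1.43 RPKM (1.18 to 1.71) and 0.969 RPKM (0.821 to 1.14), and 15.0% methylation. All 3 Krüppel-like genes had a lowly methylated start, in stretches of 1600 bp for Klf2 and 1700 bp for Klf5. Within 500 bp of the start methylation was 0.833% in Klf2 and 0.909% in Klf5, and within 2000 bp 36.5% and 43.4%. In the P10 RNA library Klf4 and Klf2 were at 0.778 and 0.803 FPKM. Behind the start, methylation over the gene body was 96.3% in Klf2 and 93.2% in Klf5, and 49.5% in Klf4. The body of Klf2 beyond its start has 3 windows with a value.

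Tfcp2l1 (120524522 on chromosome 1) had 1.32 RPKM of H3K4me3 (1.08 to 1.59), 2.00 RPKM of H3K27me3 (1.78 to 2.23) and 28.1% methylation. Nr0b1 (83437103 on chromosome X) had 0.529 RPKM (0.383 to 0.713), 0.778 RPKM (0.646 to 0.929) and 33.4%. Both start sites lay in low stretches, of 1000 bp and 800 bp, within methylated surroundings. Zfp42 (44392363 on chromosome 8) was the barest, with 0.307 RPKM of H3K4me3 (0.199 to 0.454), 0.235 RPKM of H3K27me3 (0.166 to 0.325) and 86.0% methylation. It is the 1 member below the median promoter in H3K27me3. Even so, the 1 window with a value in its printed sequence was at 0%, and the low stretch was that single window of 100 bp.

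**Figure D4:**
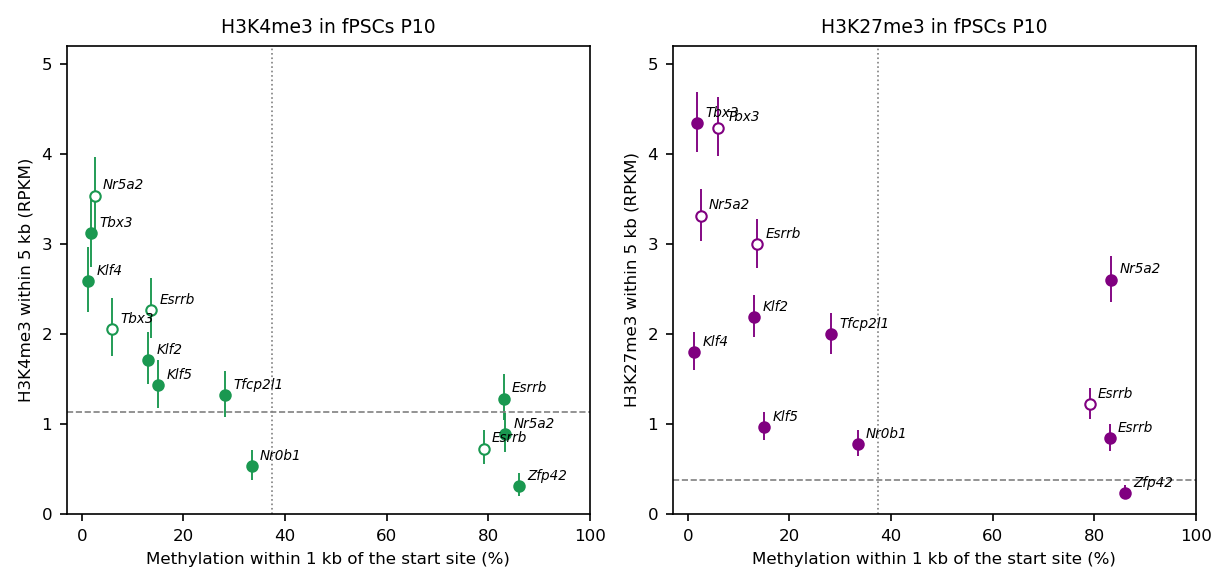
Mean H3K4me3 (left) and H3K27me3 (right) in RPKM within 5000 bp against mean DNA methylation (%) within 1000 bp of each member's start sites in fPSCs P10; filled points are outermost start sites, open points other annotated starts over 1000 bp away, bars 95% exact Poisson intervals, and grey lines the medians of all promoters. Tbx3 is highest in H3K27me3 (4.34 RPKM), Zfp42 is at the lower right (86.0% methylation), and the open points of Nr5a2 and of 1 Esrrb start lie far to the left of the filled ones.

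For Nr5a2 and Esrrb the values depended on the start site. At the outermost Nr5a2 start (138857004 on chromosome 1) H3K4me3 was 0.886 RPKM (0.694 to 1.12) and methylation 83.3%. At its inner start, 6797 bp into the gene, H3K4me3 was 3.53 RPKM (3.14 to 3.97) and methylation 2.53%, with a low stretch of 2300 bp. H3K27me3 was high at both, at 2.60 RPKM (2.36 to 2.87) and 3.31 RPKM (3.03 to 3.61). The windows over which the marks were averaged overlap in part, since the sites are closer than their width. In the printed sequences, windows with a value were at 69% and 88% before the outermost start and at 0% before the inner one.

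The outermost Esrrb start (87702067 on chromosome 12) had 1.28 RPKM of H3K4me3 (1.05 to 1.55), 0.841 RPKM of H3K27me3 (0.704 to 0.998) and 83% methylation. The inner start, 60527 bp into the gene, had 2.27 RPKM (1.95 to 2.62), 2.99 RPKM (2.73 to 3.27) and 13.6%, with a low stretch of 2000 bp. The intervals of both marks at the 2 sites did not overlap. A start 109000 bp in had 0.726 RPKM (0.553 to 0.937), 1.22 RPKM (1.05 to 1.40) and 79.1%. With the least methylated start of each gene, 1 of 9 members (Zfp42) was methylated above 50%. That choice can only lower the count, and the share over all promoters was taken at outermost starts only. The inner sites of Nr5a2 and Esrrb, with 6 and 3 CpGs in the printed sequences, were lowly methylated. Over all promoters with under 6 CpGs the median methylation was 88.5%, against 30.5% with 6 to 14 and 15.3% with 15 or more.

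**Figure D5:**
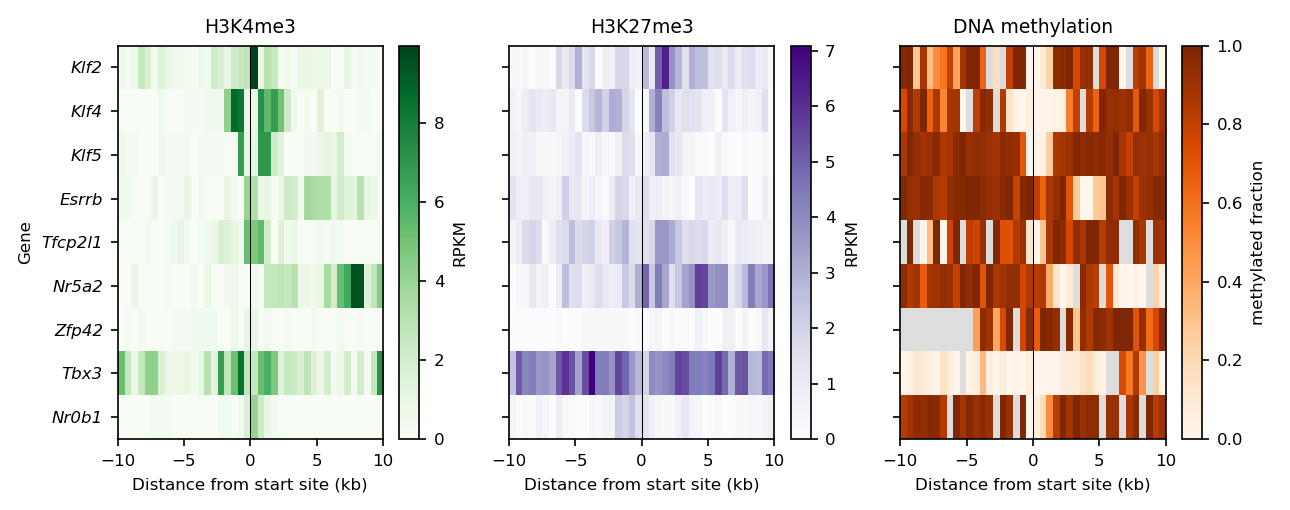
H3K4me3 and H3K27me3 (RPKM) and DNA methylation (fraction) in bins of 500 bp from 10 kb before to 10 kb after the outermost start site of each member in fPSCs P10, with grey where there is no value. Tbx3 is lowly methylated and covered by H3K27me3 over most of the width, Nr5a2 has its H3K4me3 peak downstream of the outermost start, and Zfp42 is nearly without either mark.

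Short motifs were counted in the 250 bases before the outermost start sites on both strands. GGGNGTGG, a form of the Krüppel-like site, was in 2 of 9 members and in 17.0% of all promoters, and TTCNNNGAA, the Stat site, in 1 member and 6.84% of promoters. AAGGTCA, the Esrrb site, was in no member and in 3.44% of promoters, and CTTTGAT, the Tcf site, in no member and in 3.06%. No match says only that these letters are absent from these windows.

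Single fPSCs of 4 clones (182 cells, 44 to 46 a clone) held few counts of the members. Of 11906058 counts, 457 were of members. Nr5a2 was seen in the most cells, 44 of 182 (24.2%, 95% Wilson interval 18.5 to 30.9%), with 116 counts and at most 15 in a cell. Klf4 was in 11 cells (6.04%, 3.41 to 10.5%) and Tbx3 in 9 (4.95%, 2.62 to 9.13%). Tfcp2l1 was in 7 cells, with 105 of its 132 counts in 1 cell, and Esrrb in 4, with 121 of its 129 counts in 1 cell. Klf2 was in 2 cells and Klf5 in 1, and each is listed in 1 of the 2 tables. Zfp42 and Nr0b1 are listed in neither table, so no limit is given for them. The order differs from bulk fPSCs, where Nr5a2 was among the lowest members and Klf5 the highest. Pou5f1, which is abundant in bulk fPSCs, was counted in only 17 cells, while Dnmt3b was in 180, so cell shares here do not follow bulk levels. Intervals cover counting error between cells only, and whether the counts are molecules or reads is not stated.

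Nr5a2 was in 6, 13, 20 and 5 cells of clones 1 to 4 (13.0%, 28.3%, 43.5% and 11.4%). These shares spread more widely than its interval over all cells, which takes no account of clone. Cells with a member were deeper. The 118 cells without one had a median of 16616 counts, the 52 with 1 member 74223 and the 10 with 2 members 108012, and 2 cells had 3 members. Depth thus moved with detection, and its part was not tested. With at least 3 counts required, 23 cells held a member in place of 64. No other cell type is in these tables, so no share in cells that lack these genes can be set beside them.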

How the data were processed

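Bulk RNA-seq of 19 libraries, and H3K4me3, H3K27me3, DNA methylation and single-cell RNA-seq of fPSCs, were read from the deposited tables. The authors deposited FPKM from TopHat2 2.1.1 and Cufflinks 2.1.1, after cutadapt 1.11, per the submitters' processing notes. They deposited ChIP-seq signal as RPKM per bin of 100 bp (Bowtie2 2.2.2 is named), methylation as a fraction per window of 100 bp (BS-Seeker2 is named) with no coverage, and single-cell counts per gene (STAR is named). All coordinates are mm9. A ChIP bin without a line was taken as 0. One read is worth 1.24 RPKM for H3K4me3 and 0.644 RPKM for H3K27me3, and 100.0% and 99.9% of values were whole reads within 0.01 RPKM. Whether each ChIP-seq or methylation file holds 1 replicate or both is not given in the sources used here.

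Of 23608 table entries, 4 were left out. FPKM were tested as log2(FPKM + 1) with limma 3.58.1 (R 4.3.3, with trend), in 1 model of the 2 mESC, 2 EpiLC, 2 EpiSC and 7 long-term fPSC libraries, for genes that reached 1 FPKM in 2 or more libraries. Fold changes on this scale understate the change of low genes. p-values were adjusted over all genes tested. The 3 Epiblastoid libraries, fPSCs P1 and the E5.5 and E6.5 lines have no replicates and were given as values. Columns of samples outside the series numbered 0. Python 3.11.15, numpy 2.4.6, pandas 2.3.3 and scipy 1.17.1 served for the rest, and the scripts were tested on simulated data.

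The 9 members were named by symbol. From each other list up to 4 genes were named in a comparison, the 2 with the largest absolute log2 fold change and the 2 with the highest mean FPKM, and values of a named gene in other groups were given beside it. Members and lists were chosen with earlier results of these data known. Alternatives were another pseudocount (0.1), no filter, upper-quartile scaling, only the groups compared, a replicate block, each deposit of fPSCs alone, other promoter widths and starts, a higher count minimum in cells, and leaving out each replicate.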

Additional observations from a re-analysis of the deposited data

Results flagged for a closer look

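Among the 7 long-term fPSC libraries, the highest and lowest library of each member was compared with the nearest other by the ratio of that gap to the whole range (Dixon's test at its critical value for 7 libraries). The same was done for the sum of the members. Of these 20 tests, 18 of them on single members, 2 passed, and chance passes about 1 group in 20. Nr0b1 in 46C stood at 1.32 FPKM, with the next library at 0.368 FPKM and a ratio of 0.721. Without 46C the log2 fold change of Nr0b1 in fPSCs against EpiLCs was -2.07, so the call held without it. Zfp42 in CMT P11 stood at 0.0571 FPKM, with a ratio of 0.597. All 7 libraries were at or under that level, and 3 were listed at 0.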

How the results depend on the processing

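All 27 comparisons of a member with mESCs kept direction and call in the 279 alternatives that could be computed, with a highest limma adjusted p of 0.040 (Nr0b1 in EpiLCs). Without an mESC replicate 6 members were tested, by construction. Tfcp2l1, Nr5a2 and Tbx3 were tested only through mESCs wherever the filter was used, so their direction was fixed there. Of 337 alternatives to the other 27 comparisons, 312 kept both, 13 lost the call, 6 gained it and 6 turned direction. The turned ones were small differences that passed no threshold. Tbx3 in fPSCs against EpiLCs was -0.04 with the second deposit alone and -0.021 to 0.046 leaving out replicates. Tfcp2l1 in EpiSCs against fPSCs was -0.057 with the first deposit alone and -0.004 to 0.116 leaving out replicates. Nr0b1 there was 0.069 with the first deposit alone.

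With a pseudocount of 0.1, 4 members in place of 2 were called in EpiSCs against fPSCs, Tbx3 and Zfp42 being added. Counts of called members leaving out replicates ran from 6 to 9 in each comparison with mESCs, stayed at 4 in fPSCs against EpiLCs, and ran from 3 to 4 in EpiSCs against EpiLCs (5 with all libraries) and from 1 to 2 in EpiSCs against fPSCs. Counts over all genes ran from 2291 to 3019 (3706 with all libraries) in EpiLCs, 3413 to 5173 (5047) in fPSCs and 4013 to 4724 (5980) in EpiSCs against mESCs. They ran from 865 to 1823 (1728) in fPSCs against EpiLCs, 2425 to 3621 (4488) in EpiSCs against EpiLCs and 1523 to 4463 (4041) in EpiSCs against fPSCs. fPSCs against EpiLCs gave 3178 genes with the first deposit alone and 2648 with the second. The cause was not tested. The Klf5 difference between deposits ran from -1.36 to -1.01.

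Replicate numbers shared by mESCs, EpiLCs and EpiSCs did not pair the libraries: deviations from the group means correlated at 0.204, -0.199 and -0.134. With a replicate block, 9 members were called in EpiLCs and 9 in EpiSCs against mESCs, and 4 in EpiSCs against EpiLCs, where Klf4 had a limma adjusted p of 0.0527. With the least methylated start of each gene, 1 member was methylated above 50% in place of 3, and at least 3 counts left 23 single cells with a member in place of 64. Both choices can only lower the counts. Depth behind FPKM and methylation values is unknown, and values far under 1 FPKM cannot be ranked.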
